A study of Mus musculus with 384 samples.

Results

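The 10 genes described here, Ctnna3, Dlgap1, Sgcz, Lingo2, Dmd, Sdk1, Tenm3, Pcdh9, Sorcs3 and Hs6st3, are very long genes best known from neurons, muscle and cell junctions that had counts in wells of sorted regulatory T (Treg) cells. They were chosen by their measured counts in these wells, so their own values are given as a description, with no test read from them. They are 10 of the 50556 gene symbols in the deposited matrix (30597 symbols were not at 0 throughout), and all 10 had counts in kept cells. Each was found in 20.3 to 59.4% of the kept single cells, mostly with 1 to 9 counts, while a few wells, mostly vehicle wells, with 100 counts or more held nearly all of their counts.

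Treg cells are T cells that express Foxp3 and dampen immune responses. They were sorted singly from mouse ear skin into plates and profiled from oligo dT-primed cDNA. Ears received 5% imiquimod, an activator of Toll-like receptors that inflames the skin, or vehicle, with dosing begun on day 0 and repeated to 3 applications before the sort on day 3. The series title names enkephalins made by a Treg population as its subject. There were 2 plates of 87 single cells for each treatment, and as controls 16 wells that each received 10 cells and 20 that received none. The design text gives 2 mice per treatment but ties no plate to a mouse, and the labels used here give no strain, genotype or age and no treatment for the control wells. Wells with at least 500 detected genes and 10000 counts were kept, which left 58.0% of the single cells: 62 and 58 of vehicle plates 1 and 2, and 38 and 44 of imiquimod plates 1 and 2.

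Depth and gene yield differed between plates. Kept cells held 47481 to 5946386 counts, and their median gene number was 1040.0 and 1503 for vehicle against 975 and 1093 for imiquimod. Foxp3 had a count in 37.1% of kept cells, Il2ra, the interleukin-2 receptor alpha chain, in 47.5%, and Cd3e, a T cell receptor complex subunit, in 23.8%. None of these 3 genes had a count in the 20 wells without a cell. Each was at 0 in most kept wells, so each of these genes alone bears out the label for part of them only. With the T cell receptor loci Tcra and Tcrb added, at least 1 of the 5 had a count in 94.6% of kept wells. Tcra and Tcrb also had a count in 3 and 1 of the wells without a cell, and 61.7% of Tcra detections were 1 to 9 counts. Ikzf2, another gene used as a Treg and T cell marker, had a count in 59.4% of kept wells and in 1 well without a cell.

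Most of these genes encode proteins that sit at or under the cell membrane and hold cells to each other or to the matrix. Genes of this size are made up almost wholly of introns, and their transcripts take long to make. In brain and muscle they are known for synapse formation, wiring and the anchoring of muscle fibres.

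The shared feature of the members is their length. Annotated spans ran from 599 kb for Sorcs3 to 2390 kb for Dmd, with a median of 1059 kb, while the median of all genes with a count in a kept cell was 17.4 kb. The longest annotated transcript covered 0.233% of the span in Hs6st3 and 1.06% in Sdk1, the ends of the range. The largest exon number of a transcript ran from 2 in Hs6st3 to 79 in Dmd. Promoter windows were found for 9 of the 10 genes, all but Sgcz, and they were not alike in base composition. The outermost window of 300 bases held 54 CpG pairs in Sdk1, 41 in Hs6st3 and 39 in Ctnna3, but 2 in Dmd and 0 in Lingo2, against a median of 7 over 27025 genes. The letters TATAAA, searched on both strands, were in the outermost window of Dmd alone among the 9, and in 14.2% of the outermost windows of all genes.

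The bases before the start of 3 members are shown because these genes had like patterns over the plates, with far lower levels on both imiquimod plates than on both vehicle plates (values below), while their promoters differed in CpG content. Sdk1, which had the same plate pattern and 36 CpG pairs in the like stretch, is not shown because GENCODE M21 starts a transcript inside it. Each stretch is the 200 bases upstream of the outermost RefSeq start on GRCm38.p6, written 5′ to 3′ on the gene's strand, with CpG pairs in capitals. Hs6st3 lies at chr14:119138065-119138264 on the plus strand, Sorcs3 at chr19:48205825-48206024 on the plus strand and Tenm3 at chr8:48674691-48674890 on the minus strand.
Hs6st3: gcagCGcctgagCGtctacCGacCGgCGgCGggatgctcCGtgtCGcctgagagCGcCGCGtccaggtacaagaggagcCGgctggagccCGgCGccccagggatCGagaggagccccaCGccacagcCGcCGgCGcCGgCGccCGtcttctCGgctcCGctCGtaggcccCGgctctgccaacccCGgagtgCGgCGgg
Sorcs3: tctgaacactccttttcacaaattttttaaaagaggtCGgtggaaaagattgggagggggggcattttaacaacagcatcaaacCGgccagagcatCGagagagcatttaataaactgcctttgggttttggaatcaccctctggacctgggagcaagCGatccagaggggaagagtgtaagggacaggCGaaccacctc
Tenm3: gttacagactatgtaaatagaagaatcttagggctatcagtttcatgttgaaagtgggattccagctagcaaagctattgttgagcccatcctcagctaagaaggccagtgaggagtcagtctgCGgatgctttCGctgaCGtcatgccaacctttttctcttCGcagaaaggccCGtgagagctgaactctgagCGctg
The stretch of Hs6st3 held 29 CpG pairs and 76% G or C, that of Sorcs3 5 pairs and 48.5%, and that of Tenm3 6 pairs and 48%.

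Counts of the 10 genes fell into a broad low tier and a thin high tier. Among the 2020 pairs of gene and kept well there were 830 detections, of which 340 were a single count and 639 (77.0%) were 1 to 9 counts. Only 120 pairs reached 100 counts and 57 reached 1000, yet wells at 100 or more held 98.7% of all counts of the 10 genes. The median detected count was 1 to 3 for each gene, whereas the highest well of each held 4346 (Dmd) to 15233 (Sdk1) counts. A share of wells with a count and a summed level therefore describe different wells for these genes.

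**Figure D1:**
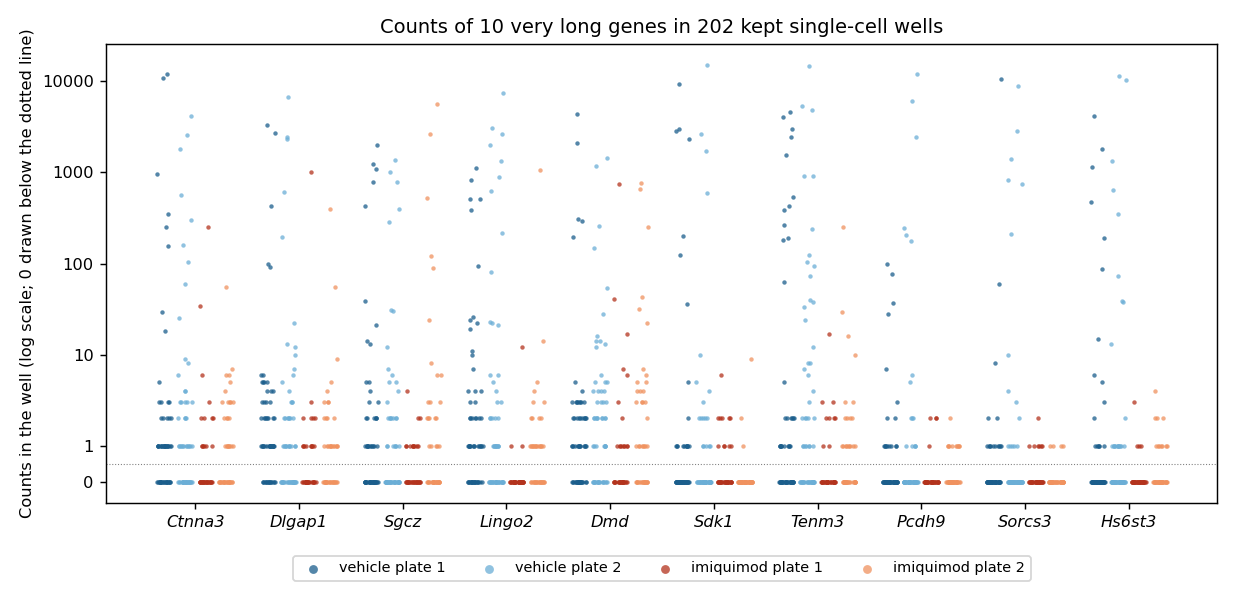
Counts of each gene in each kept cell, on a log axis with 0 drawn below the dotted line and each point a well coloured by plate. Most detections lie at 1 to 9 counts, and points at 100 or more make up 8.92% of the pairs of gene and well for vehicle and 1.59% for imiquimod.

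Detection was highest for the 5 members over 1000 kb (Dmd, Ctnna3, Tenm3, Lingo2 and Sgcz) and for Dlgap1. Dmd had a count in 59.4% of kept cells, Dlgap1 in 58.9%, Ctnna3 in 55.0% and Lingo2 in 49.5%. Sgcz followed with 47.0% and Tenm3 with 45.0%. The other members were found in 26.7% (Hs6st3), 25.7% (Sdk1), 23.3% (Pcdh9) and 20.3% (Sorcs3) of kept cells. A well held a median of 4, 4.5, 2 and 3.5 of the 10 genes on vehicle plates 1 and 2 and imiquimod plates 1 and 2. All 10 genes were found in 5 wells, each of them a vehicle well, and none of the 10 in 6 wells.

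Levels on the plates are given as TMM-normalised CPM of the summed kept cells (counts relative to the plate's total, with TMM scaling between plates), always as vehicle plate 1, vehicle plate 2, imiquimod plate 1 and imiquimod plate 2. They are not set against each other between genes, since they are not per length. In such sums, fewer wells with the transcript and less of it per well cannot be told apart. A log2 fold change below 0 means a lower level in imiquimod, and its standard error (SE) is over 2 plates per treatment. The plates are nested in the treatments and not said to be separate animals, so an SE cannot be read as a spread between animals. It was derived from the fold change and edgeR's test statistic, whose estimate of variation draws on all tested genes. An SE is thus not the spread between the plates of 1 gene alone.

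All 4 adhesion genes stood lower on both imiquimod plates than on both vehicle plates. Sdk1, which encodes an immunoglobulin-type adhesion protein that pairs synaptic partners, stood at 182.1, 159.7, 0.449 and 0.129 CPM, a log2 fold change of -9.21 ± 3.14 (SE). Its share of wells with a count was 32.3, 31.0, 28.9 and 6.82%, so imiquimod plate 1 lay close to the vehicle plates in share while far below them in level. On that plate the highest Sdk1 well held 6 counts, against 9377 and 15233 on the vehicle plates.

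Tenm3 encodes a teneurin, a transmembrane protein that binds latrophilins on the facing cell. Its levels were 180.6, 219.6, 0.706 and 3.56 CPM (-6.55 ± 2.63, SE), with a count in 48.4, 56.9, 23.7 and 43.2% of wells. It had the most wells at 100 counts or more of all members, 19 in vehicle and 1 in imiquimod.

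Pcdh9, a protocadherin of the cadherin family, stood at 2.68, 167.1, 0.1497 and 0.118 CPM (-9.30 ± 4.18, SE). The vehicle plates were themselves far apart, with 17 and 16 wells with a count but 0 and 3 wells at 1000 counts or more, and the higher of them took 56.4% of its sum from 1 well. Its share of wells with a count was 27.4, 27.6, 10.53 and 22.7%.

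Ctnna3 encodes an alpha-catenin that links cadherins to actin and is best known from heart muscle. Its levels were 251.3, 77.5, 6.55 and 1.22 CPM (-5.40 ± 2.73, SE), with a count in 62.9, 60.3, 36.8 and 52.3% of wells. The 2 vehicle plates differed more from each other in level than in share, and the treatments overlapped in neither.

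The next genes belong to the membrane complex of muscle. Dmd encodes dystrophin, which ties the actin skeleton to the membrane complex that binds the matrix. It stood at 74.1, 25.7, 17.9 and 19.5 CPM (-1.41 ± 2.97, SE), and the lower vehicle plate lay near the imiquimod plates. Its share of wells with a count was 62.9, 69.0, 39.5 and 59.1%.

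Sgcz encodes zeta-sarcoglycan, a subunit of the same complex, and is the 1 member whose treatments overlapped. Its levels were 57.5, 31.2, 0.385 and 97.5 CPM (0.14 ± 2.93, SE), so the highest and the lowest plate were both imiquimod plates. On imiquimod plate 2, 62.5% of its counts came from 1 well of 5686 counts. Its share of wells with a count overlapped too, at 51.6, 48.3, 34.2 and 50.0%.

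Among the genes known from synapses, Dlgap1 encodes a scaffold protein that joins receptor complexes under the postsynaptic membrane. It stood at 68.3, 98.5, 22.1 and 5.34 CPM (-2.61 ± 2.85, SE), with a count in 74.2, 58.6, 39.5 and 54.5% of wells. The level on imiquimod plate 1 came nearly whole from 1 well, which held 1011 of 1031 counts.

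Lingo2 encodes a leucine-rich repeat membrane protein related to LINGO1, an inhibitor of myelination. Its levels were 36.4, 145.02, 0.299 and 12.0 CPM (-3.88 ± 3.17, SE). Its share of wells with a count was 64.5, 56.9, 7.89 and 54.5%, so imiquimod plate 1, with 3 of 38 wells, stood apart from the other 3 plates. On imiquimod plate 2, 1 well held 1072 of 1123 counts.

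Sorcs3 encodes a receptor of the VPS10 family, which sorts proteins between membranes in neurons. It stood at 108.05, 118.6, 0.171 and 0.0429 CPM (-10.04 ± 3.78, SE), from 10672, 15067, 8 and 4 counts. On vehicle plate 1 a single well held 10591 of those counts. Shares of wells with a count were much closer, at 24.2, 25.9, 18.4 and 9.09%.

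Hs6st3 encodes a 6-O-sulfotransferase that modifies heparan sulfate, the sugar chain through which many growth factors bind cells. Its levels were 79.9, 192.9, 0.128 and 0.182 CPM (-9.76 ± 3.49, SE), with a count in 27.4, 37.9, 10.53 and 25.0% of wells. The imiquimod plates held 6 and 17 counts in all, and the fitted fold changes of Hs6st3, Sorcs3, Pcdh9 and Sdk1 rest in part on the prior count added in the fit.

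Together, 9 of the 10 genes had a lower level on both imiquimod plates than on both vehicle plates, and 9 of 10 had a lower share of wells with a count, with Sgcz the exception in each. Over all 14462 genes that passed the expression filter, which all 10 members passed, 31.1% had a lower level without overlap and 42.5% a lower share. In edgeR's quasi-likelihood test 0% of those genes (0 of 14462) passed an adjusted p of 0.05, with 1669 at an unadjusted p under 0.05 (14.9% of them higher and 1420 lower), and DESeq2 on the same sums called 3740. The members were proposed with this contrast known, so their count is read as a description only. Gene number per kept cell also differed between plates, as given above, and its part in these levels was not tested. With DESeq2's size factors in place of TMM, under which the fold changes of the tested genes had a median of 0.11 (log2) in place of -0.26, 8 of the 10 genes were lower, without Dmd, beside 28.7% of all genes. Among cells with at least 1000 genes, and with each cell thinned to 410000 counts, 9 of the 10 genes were again lower on both imiquimod plates, beside 32.1% and 29.0% of all genes.

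**Figure D2:**
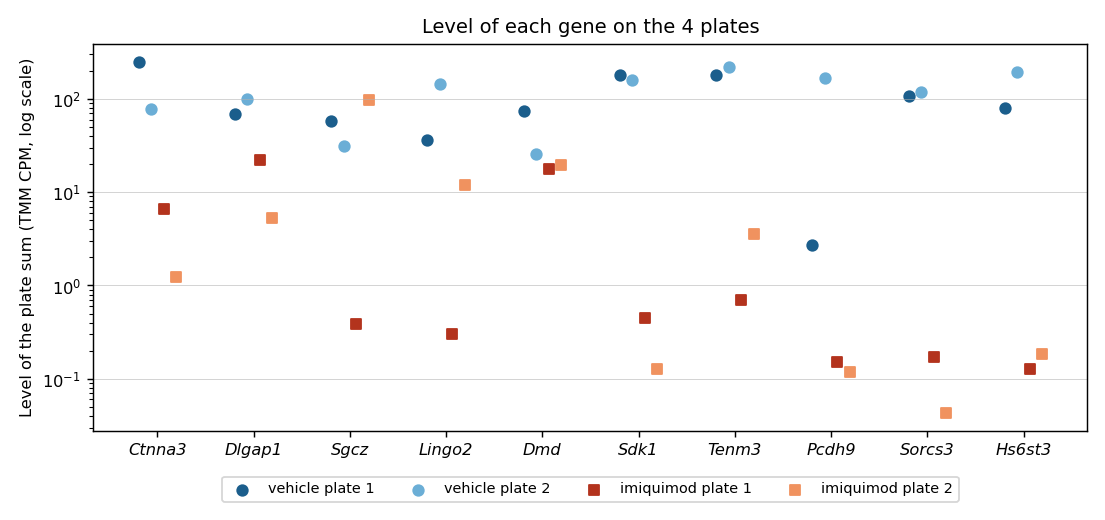
TMM-normalised CPM of each gene in the sum of kept cells of each of the 4 plates, on a log axis, with circles for vehicle and squares for imiquimod plates. Both imiquimod plates lie below both vehicle plates for 9 genes, and Sgcz on imiquimod plate 2 (97.5 CPM) lies above both vehicle plates.

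Other genes of like length were often lower as well. Of the tested genes of at least 500 kb that are not members, 58.0% were lower on both imiquimod plates without overlap, with a median log2 fold change of -2.59. Of 59 such genes of at least 1000 kb, 36 (61.0%) were lower. Among 3477 tested genes under 10 kb the share was 18.5% and the median 0.87, beside -0.26 for every tested gene. These counts are across genes, which are not independent replicates, and no test compares the members with the other long genes.

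Pairs of gene and well at 100 counts or more were mostly in vehicle wells. They made up 8.92% of the 1200 pairs of gene and well in vehicle cells and 1.59% (13 pairs) of the 820 in imiquimod cells. At least 1 member reached 100 counts in 30, 25, 3 and 8 wells of the 4 plates, or 66 wells in all. The low tier was present in both treatments, where 1 to 9 counts made up 71.5% of detections in vehicle and 88.9% in imiquimod cells. Summed over the 10 genes, kept cells of the 4 plates stood at 1137, 1579, 33.9 and 131.4 CPM without TMM scaling.

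The wells with high counts were not the same well for every gene, though some held several. Of the 66 wells, 43 had 1 member at 100 counts or more, 12 had 2 and 11 had 3 to 8. The well with 8 lay on vehicle plate 2, had all 10 genes, 3006 detected genes and 7399 counts of Lingo2, and the 10 genes made up 1.76% of its counts. The 6 wells with 5 or more members at 100 counts were all vehicle wells, with 2756 to 6168 detected genes. Among the 66 wells, Foxp3 had a count in 40.9%, Il2ra in 53.0% and Cd3e in 22.7%, beside 37.1, 47.5 and 23.8% of all kept wells. At least 1 of these genes, Tcra and Tcrb had a count in 98.5% of the 66 wells, beside 94.6% of all kept wells.

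The highest cell held a large part of most plate sums. The median over the 10 genes of its share was 48.9, 50.3, 50.8 and 55.4% in plate order. The extremes per plate were Sorcs3 on vehicle plate 1 (99.2%), Sdk1 on vehicle plate 2 (75.1%), Dlgap1 on imiquimod plate 1 (98.1%) and Lingo2 on imiquimod plate 2 (95.5%). Over all kept cells the top share ran from 30.3% for Sgcz to 55.6% for Pcdh9, with a median of 33.6%. The same median was 35.2% for the other genes of at least 500 kb and 17.7% for the 1559 genes found in at least 20% of kept cells. Over all 28163 genes with a count in a kept cell it was 69.6%, where the median gene was found in 2.48% of kept cells.

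Wells with more detected genes held more of the 10 genes on every plate. The Spearman correlation between the number of members with a count and the number of other genes detected was 0.36, 0.44, 0.47 and 0.51 over 62, 58, 38 and 44 cells. These points share library depth, and the correlation with total counts was 0.23, 0.45, 0.27 and 0.44. Thinned to 410000 counts per cell, which left 51, 55, 32 and 44 cells, the correlation between members and other genes detected was 0.08, 0.16, 0.15 and 0.13. The relation is given as a description over cells, which are not replicates.

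**Figure D3:**
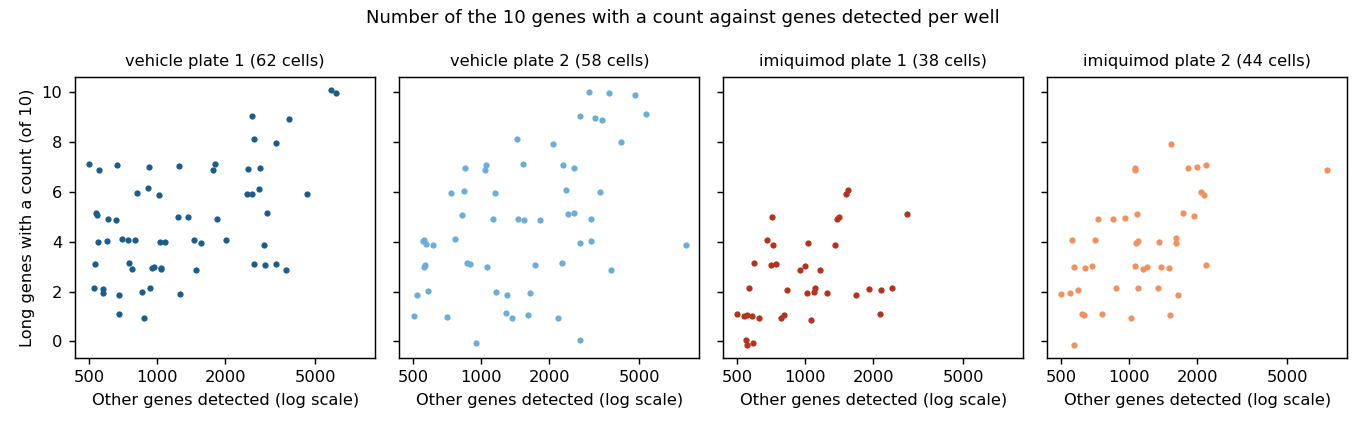
Number of the 10 genes with a count (0 to 10, with points spread slightly) against other genes detected per well on a log axis, 1 panel per plate and 1 point per kept cell. Wells with all 10 genes occur on the vehicle plates only, and the correlations are 0.36, 0.44, 0.47 and 0.51 in panel order.

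Detection rose with gene number, whereas the summed level differed in direction between plates. When each plate's cells were divided into 3 tiers of gene number, the mean number of members was 3.20 in the low tier (69 cells), 3.68 in the middle tier (68 cells) and 5.52 in the high tier (65 cells). Their summed level was 874, 825 and 709 CPM in the same order, over the plates together. It was lower in the high tier than in the low tier on vehicle plate 1 (2497 and 534 CPM) and imiquimod plate 1 (69.5 and 43.3 CPM). It was higher in the high tier on vehicle plate 2 (1445 and 1548 CPM) and imiquimod plate 2 (10.7 and 284.9 CPM). The ratio of high-tier to low-tier detection was 1.22 for Dlgap1, 1.26 for Lingo2 and 1.63 to 2.52 for another 7 members, and 5.66 for Pcdh9, found in 8.70% and 49.2% of wells. The median of the ratio was 1.71 for the members, 2.31 for the other genes of at least 500 kb and 3.45 for the 1559 genes found in at least 20% of cells. All members but Pcdh9 lay below that last median. Dlgap1 had a lower ratio than all but 20 of the 1559 genes and Lingo2 than all but 22. The ratio is bounded by detection in the low tier, since no share can pass 100%. Low-tier detection was 56.5% for Dlgap1 and 46.4% for Lingo2, beside a median of 13.0% for the 1559 genes. No conclusion is therefore drawn from these ranks.

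Low counts were more common among longer genes. Detections of 1 to 9 counts made up a median of 77.5% of all detections for the members, 74.5% for the other genes of at least 500 kb and 35.4% for the 1559 common genes. Over protein-coding genes with a count, the median share of kept cells with a count was 1.98% under 10 kb, 10.9% from 100 to 500 kb, 26.2% from 500 to 1000 kb and 38.6% over 1000 kb. The members over 1000 kb, at 45.0 to 59.4%, lie in the range of the longest class, 16.8 to 59.4%, whose top is Dmd itself. The shorter members, at 20.3 to 58.9%, lie in the range of the class from 500 to 1000 kb, 0.495 to 69.3%.

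Some long genes that T cells express had another profile. Dock2, a regulator of lymphocyte migration, was found in 69.3% of kept cells with 20.0% of its detections at 1 to 9 counts and 97 wells at 100 or more. Rora, Arhgap15 and Inpp4b, long genes picked after their values were seen, had 28.3, 36.9 and 31.5% of detections at 1 to 9 counts and 68, 59 and 64 wells at 100 or more. Members had 64.8% (Tenm3) to 85.7% (Dlgap1) of detections in that range and 7 to 20 wells at 100 or more. The other long symbols found most often were the receptor loci Igk (82.2% of kept cells), Igh, Tcra and Tcrb, which are assembled from segments, and Dach2, a transcription factor gene. Dach2 had a count in 89.2% of vehicle and 31.7% of imiquimod cells, reached 100 counts in 2 wells, and also had a count in 9 of the 20 wells without a cell.

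**Figure D4:**
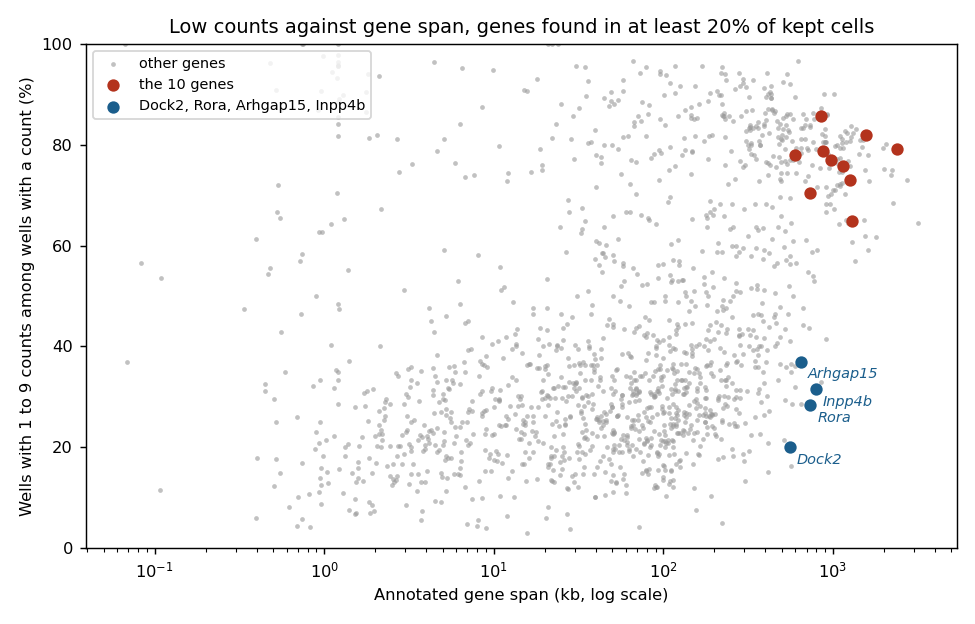
Percent of a gene's detections that were 1 to 9 counts against its annotated span in kb on a log axis, for genes found in at least 20% of the kept cells. The 10 members (red) lie between 64.8 and 85.7%, and Dock2, Rora, Arhgap15 and Inpp4b (blue) between 20.0 and 36.9%.

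The genes whose level followed the number of members most closely included several long genes and a receptor locus. By mean within-plate Spearman correlation over the kept cells, the leading symbols of 1549 ranked were Pkhd1 (0.453), Lrrc4c (0.448), Gpc5 (0.447), Igk (0.445), Nrg3 (0.435) and Gm32498 (0.432). The median over genes was 0.111. All of these values share each well's depth and gene number.

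Relatives and partners of the members were mixed in the treatment contrast. Of 90 genes in 7 lists of relatives and partners, 60 were tested and 0 passed edgeR's test. Of the 60, 21 (35.0%) were lower and 3 higher on both imiquimod plates without overlap, beside 31.1% lower and 13.7% higher over the whole table. By list, the median log2 fold change was lowest for the VPS10 sorting receptors, relatives of Sorcs3, at -4.98 over 4 tested genes. It was 0.73 for 11 genes of the list of postsynaptic scaffolds and family relatives of Dlgap1, which also holds partners of Dlgap1. For the other 5 lists it was -0.46 to -3.48.

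Members had relatives with both kinds of profile. Sntg1, a syntrophin of the dystrophin complex with a span of 942 kb, was found in 65.8% of kept cells at 40.9, 46.5, 1.497 and 1.13 TMM-normalised CPM. Sntb1, a syntrophin of 270.9 kb, stood at 1177, 863, 980.3 and 501 CPM, with 13.6% of its counts in its top cell. Pcdh15, a protocadherin of 1554 kb, was at 176.6, 123.2, 19.7 and 9.80 CPM and found in 49.5% of kept cells. Ext1, which builds the heparan sulfate chain that Hs6st3 modifies, was at 515, 351.5, 951 and 580.0 CPM and in 33.2% of cells. Dlg2, a scaffold partner of Dlgap1, was in 50.5% of cells at 7.22, 17.3, 0.428 and 71.6 CPM. Of the 14 relatives found in the most cells of each list, 5 (Sntg1, Pcdh15, Adgrl3, Pcdh11x and Hs6st2) were lower on both imiquimod plates without overlap, and Ext1 was higher. The shares over all tested genes were 31.1% lower and 13.7% higher.

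Markers of neurons and muscle were found in few cells. The 8 neuronal markers had a count in a median of 1.49% of kept cells and Nefm in none, and their summed level was 10.4, 186.1, 1.04 and 4.57 CPM on the 4 plates. The 8 Schwann cell markers stood at 97.2, 49.4, 355.3 and 28.0 CPM, mostly from Mbp. The 8 skeletal muscle markers summed to 470, 257.3, 0.0446 and 10.2 CPM, led by Ttn, which was found in 14.4% of cells. The 6 mast cell markers summed to 272.6, 115.6, 4.50 and 6.42 CPM, nearly all from Kit, which was found in 17.3% of cells. The 10 Treg and T cell markers summed to 13390, 10471, 8326 and 7569 CPM. All sums of marker lists are CPM without TMM scaling. On that scale the neuronal, muscle, mast cell and T cell sums were lower on both imiquimod plates without overlap, as 9 members were. The melanocyte sum went the other way without overlap, at 79.3, 103.5, 149.2 and 118.7 CPM. Sums of the Schwann cell, fibroblast, keratinocyte, and macrophage and dendritic cell markers overlapped between treatments. In TMM-normalised CPM, 3 of the 10 Treg and T cell markers were lower without overlap and 3 higher. Over all tested genes 31.1% were lower and 13.7% higher in this way. The part of these markers in the members' levels was not tested. The fibroblast markers stood at 91.01, 350.7, 119.5 and 202.5 CPM and those of macrophages and dendritic cells at 4.31, 233.1, 13.2 and 65.1 CPM, with no marker at 0. The melanocyte markers lacked Tyrp1, the keratinocyte markers Krt1, Krt15 and Dsg3, and the mast cell markers Mcpt4, Cma1, Fcer1a and Tpsb2.

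Wells of 10 cells held a median of 8.5 of the 10 genes, with a range of 4 to 10. Their depth was 710021 to 9159522 counts and their median gene number 6623.5. Dlgap1 had a count in 16 of 16 wells, Dmd in 15, Ctnna3 and Tenm3 in 14, Sgcz, Lingo2, Pcdh9 and Hs6st3 in 11, Sdk1 in 9 and Sorcs3 in 6. At the kept cells' shares, 10 independent cells would give a count in 84.3% (Sorcs3) to 99.8% (Dmd) of wells. That figure is a mean over plates and takes no account of depth per cell. Counts were uneven between these wells. Dlgap1 ran from 1 to 2530 counts with a median of 78.5, Lingo2 from 0 to 3500 with a median of 105.5, and Sorcs3 from 0 to 4548 with a median of 0. Of 160 pairs of gene and well, 44 reached 100 counts.

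The 16 wells carry no treatment label, and no treatments were compared among them. Grouped by the block of 96 library numbers they share with each plate, 4 wells each, the median number of members was 9 and 9 for the blocks of the vehicle plates and 4 and 7 for those of the imiquimod plates. Their summed level was 551, 773, 56.5 and 350.9 CPM in the same order. The median gene number of these blocks, 8132.5, 7524, 4693 and 6223.5, was lowest in the block where the members were fewest.

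Wells without a cell held few counts of the 10 genes. A member was detected in 8 of 20 wells and in 16 of 200 pairs of gene and well, at 31.6 CPM of the 3954843 counts of all these wells. By number block, the members stood at 15.2 CPM beside vehicle plate 2, 112.97 beside imiquimod plate 1 and 19.7 beside imiquimod plate 2, while the block of vehicle plate 1 held 908 counts in all, 2 of them of members. The 112.97 CPM, from 1 well with Sgcz, exceeds the 33.9 CPM of the kept cells of imiquimod plate 1. No pair reached 100 counts, and 3 reached 10: Sgcz with 66 and 15 counts and Ctnna3 with 21. The well of 66 Sgcz counts shares its number block with imiquimod plate 1, whose 38 kept cells held 18 Sgcz counts together. Lingo2, Sdk1 and Pcdh9 were at 0 in the 20 wells, where an absence allows up to 15.0% of wells with a count. Total counts of these wells ran from 0, in 4 of them, to 1527760. The well of 1527760 counts had 885 genes, which would pass the filter for kept cells, and held 4 of the members with 30 counts in all.

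**Figure D5:**
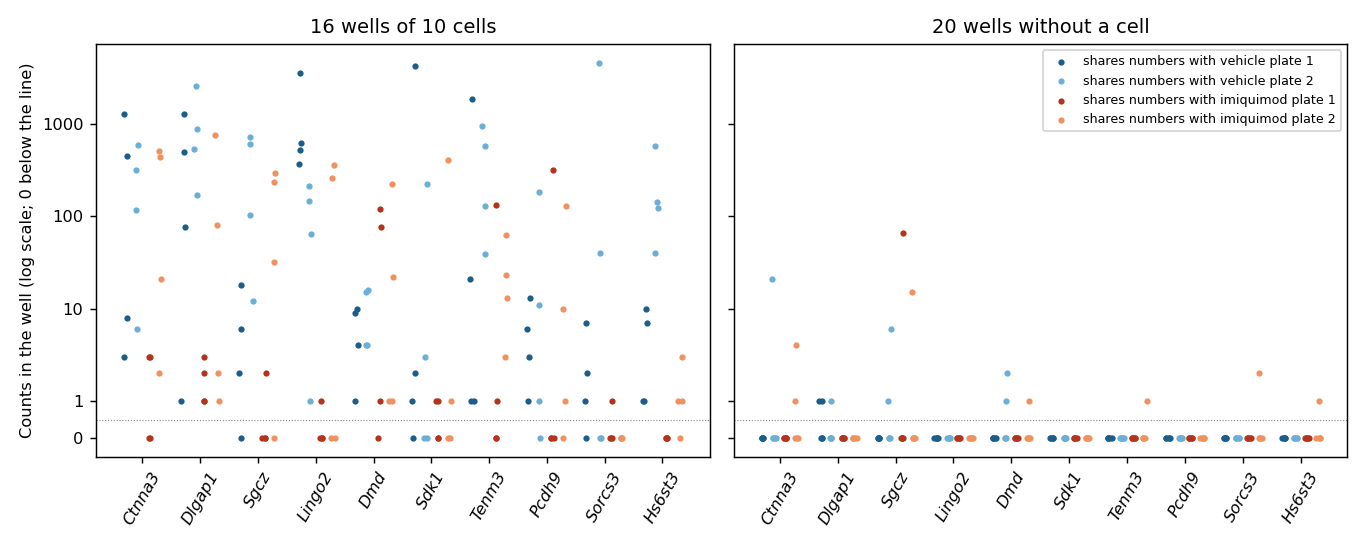
Counts of each gene in the 16 wells of 10 cells (left) and the 20 wells without a cell (right), on a log axis with 0 below the dotted line and colours for the plate whose library numbers the well shares. Of 160 pairs 44 reach 100 counts on the left, and the highest on the right is Sgcz at 66 counts.

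Single-cell wells that failed the filter had fewer of the members. In these wells 13.3% of the 1460 pairs of gene and well had a count, and 89.2% of those detections were 1 to 9 counts. Dlgap1 was found most often, in 27.4% of them, and Pcdh9 least often, in 4.11%. At least 1 member reached 100 counts in 10 of these wells, among them Tenm3 and Lingo2, whose sums there were 11771 and 7845 counts.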

How the data were processed

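The authors deposited whole-number read counts, genes by 384 wells, in 1 matrix. The submitters' processing notes name Trimmomatic 0.39, STAR 2.7.3a, SAMtools 1.12 and mm39. How reads were counted, the strand setting and annotation are not given in the sources used here, so long genes that hold other genes in their introns or on the other strand are uncertain. Per the labels' protocols, cDNA was amplified for 24 cycles and libraries for 12, with no molecular identifiers named, so counts include PCR copies. The limit given for wells without a cell rests on the number of wells only.

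Wells were assigned to treatment and plate from the labels. Members and gene lists were chosen with earlier results of these data known. Single-cell wells with at least 500 genes and 10000 counts were kept, and their counts were summed per plate. The sums were fitted for all genes with edgeR 4.0.16 in R 4.3.3 (quasi-likelihood test, default expression filter, TMM, Benjamini-Hochberg, threshold 0.05), with no covariate. The code was tested on simulated data. Detection means at least 1 count. Thinning drew 410000 counts per cell and left out shallower cells. From each list up to 2 genes found in the most kept cells could be named, as could the 6 long genes found most often and the 6 genes most alike; others are marked as picked after their values were seen. Spans and promoter windows came from RefSeq on GRCm38.p6, and transcripts from GENCODE M21, an older assembly than mm39, so spans serve as lengths only. DESeq2 1.42.0, other filters and scalings, and leaving out each plate were alternatives. The share of cells with at least 100 counts was an alternative added after the data were seen. The values of 1 marker gene are not reported here.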

Additional observations from a re-analysis of the deposited data

How the results depend on the processing

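The count of genes that passed the edgeR threshold between treatments, 0 of 14462, was 9 without the expression filter and 3740 with DESeq2. It ran from 0 to 794 when each plate was left out in turn, with 1.02% of tested genes passing without imiquimod plate 1 and 3.91% (794) without imiquimod plate 2, where the lone plate is assumed to vary like the vehicle plates. The number of members lower on both imiquimod plates was 8 or 9 under its 6 alternatives. Over all tested genes the share lower was 32.1% among cells with at least 1000 genes and 37.6% without the highest cell of each plate. It was 29.0% after thinning, 28.7% with DESeq2's size factors and 42.5% for shares of cells with a count. For the share of cells with at least 100 counts, no share over all genes was computed. The sign of the log2 fold change held in every fit run for the 9 members other than Sgcz. For Sgcz, 0.14, it was -0.0865 in all single-cell wells, -0.27 without the highest cell of each plate and -0.15 after thinning. It ran from -6.75 to 1.23 with each plate left out in turn, below 0 without vehicle plate 2 (-0.20) or imiquimod plate 2 (-6.75). The mean within-plate correlation between members and genes per well, 0.45, was 0.13 after thinning, 0.35 when detection needed 10 counts, 0.66 over all single-cell wells, and 0.42 to 0.47 with each plate left out. The share of cells with a count moved beyond the spread between plates in 34 of 50 checks. The cause of these changes was not tested. No paired analysis was possible because the numbers in the titles name wells and pair no vehicle plate with an imiquimod plate. Of 830 detections, 340 rest on a single count.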
